A study of Mus musculus with 2 samples.

Results

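The JAK kinases and the STAT factors that serve cytokines other than the interferons were examined in cultured murine CD8+ effector T cells, comparing cells stimulated once with cells stimulated a second time (1 and 2 rounds). The 9 genes were Jak1, Jak2, Jak3, Tyk2, Stat3, Stat4, Stat5a, Stat5b and Stat6, and a probe was taken where the platform annotation gave it exactly 1 gene symbol, equal to one of these, and both arrays held a value. This found 8 of the 9 genes, each by 1 probe, out of 14150 genes and 21427 probes with both values. Stat5b had no such probe in the data used here. Each of the 2 arrays carried total RNA of both stages, in channel 1 the cells stimulated once and in channel 2 the cells stimulated again. The cells were from the pmel mouse, a transgenic whose CD8+ T cells bear a receptor for a melanocyte antigen. The pmel background is shared by both stages. Whether the repeat array had RNA of a new culture is not in the labels, so p-values and errors measure only the spread between the 2 arrays, which may be technical.

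Each value was used as a log2 ratio of the 2 channels. The sources used here state neither the numerator nor the log base. Titles and channel numbers both list the 1-stimulation cells ahead of the others, which makes 1 over 2 stimulations the likely ratio, with no other basis. A positive value would then be RNA more abundant after 1 stimulation. The opposite order would turn every side given here. No dye swap is labelled, and a dye bias of a probe, which would repeat on both arrays, cannot be told apart from a difference in RNA. Values were centred near 0 on both arrays (medians of 0.01 and 0.02), so a shift common to all genes would not appear, and the signal behind a ratio is unknown.

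Cytokine receptors have no kinase activity of their own and carry JAK kinases on their cytoplasmic tails. When a cytokine brings the chains together, the JAKs phosphorylate each other and the receptor, STAT proteins dock there, are phosphorylated, pair and move to the nucleus to drive transcription. In CD8+ T cells this route carries survival and growth signals of IL-2, IL-7 and IL-15, differentiation signals of IL-12 and IL-21, and the interferon response, and SOCS proteins induced by STATs switch it off again.

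The promoters of the members with the largest positive ratios, Stat4, Jak2 and Jak1, are shown so that the genes behind these ratios can be read next to the values. They are the 250 bases before each annotated start in RefSeq's table (build GRCm38.p6), 5′ to 3′ on the gene's strand. The Stat4 starts follow chr1:51986898-51987147 on the plus strand and chr1:52007990-52008239 on the plus strand. The Jak2 window is chr19:29251553-29251802 on the plus strand and the Jak1 window chr4:101265224-101265473 on the minus strand.
Stat4 start 1: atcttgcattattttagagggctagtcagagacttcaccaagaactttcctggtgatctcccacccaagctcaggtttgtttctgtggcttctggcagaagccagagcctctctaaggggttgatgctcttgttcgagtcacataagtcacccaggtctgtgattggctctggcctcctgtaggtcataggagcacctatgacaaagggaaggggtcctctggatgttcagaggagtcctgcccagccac
Stat4 start 2: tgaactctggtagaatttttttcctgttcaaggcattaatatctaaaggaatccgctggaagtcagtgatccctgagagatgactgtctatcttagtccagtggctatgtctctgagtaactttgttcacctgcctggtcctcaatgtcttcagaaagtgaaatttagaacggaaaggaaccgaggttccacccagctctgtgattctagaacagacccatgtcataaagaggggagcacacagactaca
Jak2: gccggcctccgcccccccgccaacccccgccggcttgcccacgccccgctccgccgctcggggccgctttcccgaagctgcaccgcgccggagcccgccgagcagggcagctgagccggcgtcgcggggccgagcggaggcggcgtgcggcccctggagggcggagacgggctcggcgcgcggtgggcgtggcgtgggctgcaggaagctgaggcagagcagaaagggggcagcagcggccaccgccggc
Jak1: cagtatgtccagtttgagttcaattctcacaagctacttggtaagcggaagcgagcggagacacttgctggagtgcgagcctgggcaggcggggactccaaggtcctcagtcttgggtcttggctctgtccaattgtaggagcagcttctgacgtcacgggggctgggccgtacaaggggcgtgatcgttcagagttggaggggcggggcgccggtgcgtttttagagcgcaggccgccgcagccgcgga

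No letters are in capitals because neither STAT motif searched was found. The motifs were TTCNNNGAA, the spacing most STAT dimers bind, and TTCNNNNGAA, the spacing STAT6 prefers; both read the same on either strand. Of the 12 windows that the table holds for the 9 genes, 0 had either motif. The first was in 7.02% and the second in 5.85% of all 32851 windows of that length. The windows differ in composition: the first Stat4 window holds 1 CpG and has a GC content of 51.6%, while the Jak2 window holds 37 CpGs at 80.8% and the Jak1 window 19 at 61.2%. The median window held 6 CpGs at 52.4% GC.

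The means of 7 of the 8 genes lay above 0, that of Stat5a was -0.03, and Stat4 stood farthest out. On both arrays 6 genes were positive (Jak1, Jak2, Jak3, Stat3, Stat4 and Stat6), Stat5a was negative and Tyk2 changed sign. Of all 14150 genes, 29.6% had both arrays positive and 33.6% had both negative. The median of the 8 genes was 0.28, with 0.12 on array 1 and 0.55 on array 2, against -0.02 over all genes. Without Stat4 the median of the remaining 7 was 0.12. No member changed by the test: limma's moderated test, adjusted by Benjamini-Hochberg over all probes, called 0 of the 8 at 0.05, and it called 0% of the 21427 probes.

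At an unadjusted p under 0.05 in limma stood 3 of the 8 members (Stat4, Jak1 and Jak2), all positive, where 14.9% of all probes were past that level and 6.87% were past it on the positive side. By size, 1 of the 8, Stat4, was at least 1.5-fold on the positive side of both arrays, against 1.74% of probes. At 2-fold on both arrays there were 0 members, against 0.854% of probes. On array 1 alone 1 member was past 1.5-fold on the positive side (4.42% of probes) and 0 past 2-fold (0.868%). On array 2 alone, whose spread was wider, 4 were past 1.5-fold (6.24%) and 2 past 2-fold (2.25%). No member reached either size on the negative side of an array.

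**Figure D1:**
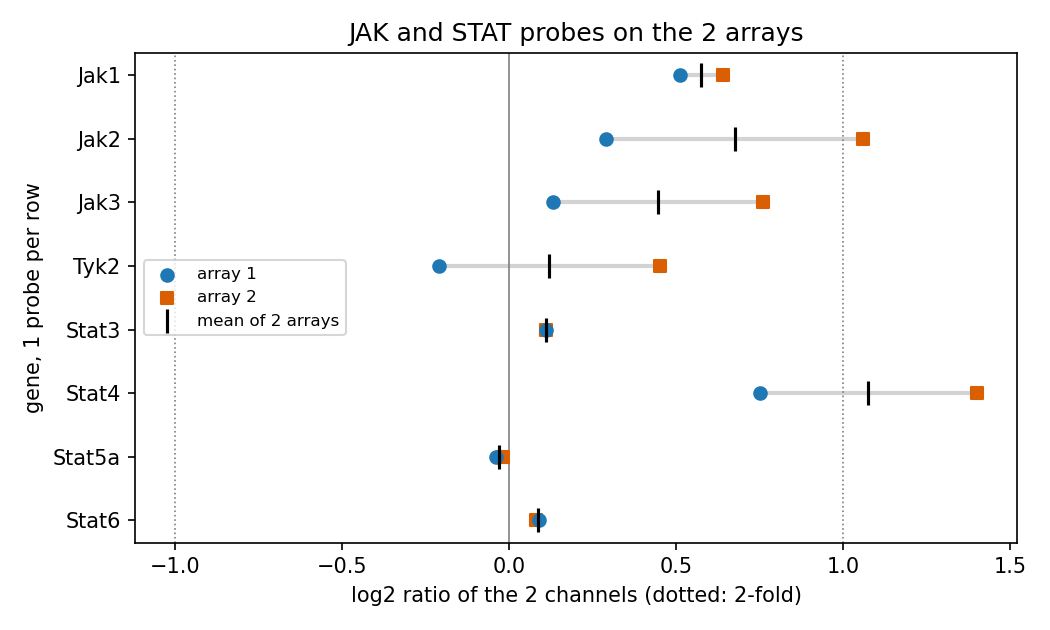
Log2 ratio of each JAK and STAT probe (horizontal axis) on array 1 (circles) and array 2 (squares), with the mean as a bar and dotted lines at 2-fold. Stat4 is farthest right on both arrays (0.75 and 1.40), Stat3, Stat5a and Stat6 lie near 0 with both arrays together, and Tyk2 spans 0.

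Jak1 (Entrez 16451, probe 1231728_1), which pairs with nearly every cytokine receptor of T cells, read 0.51 on array 1 and 0.64 on array 2. Both arrays gave close values on the same side. Its mean was 0.58 ± 0.09 (SD, n = 2), a 1.49-fold difference, with limma's unadjusted p at 0.0121 and the adjusted p at 0.225.

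Jak2 (Entrez 16452, probe 1232741_1), the kinase of the IL-12, interferon gamma and hormone-like receptors, read 0.29 and 1.06. Array 2 was well above array 1, and the gap of 0.77 was wider than that of 93.2% of probes. The mean was 0.68 ± 0.54 (SD, n = 2), or 1.60-fold. Its limma adjusted p was 0.304, with an unadjusted p of 0.0368.

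Jak3 (Entrez 16453, probe 1234166_1) binds only the common gamma chain, the shared subunit of the IL-2, IL-4, IL-7, IL-9, IL-15 and IL-21 receptors. It read 0.13 and 0.76, again higher on array 2. The mean was 0.45 ± 0.45 (SD, n = 2), 1.36-fold, with a limma adjusted p of 0.400.

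Tyk2 (Entrez 54721, probe 1229459_1), which serves the IL-12 and type I interferon receptors, read -0.21 and 0.45, so the arrays disagreed on its side. Its mean of 0.12 ± 0.47 (SD, n = 2) was smaller than its spread, and limma's adjusted p was 0.809. The median of the 4 kinases was 0.51 (array 1: 0.21, array 2: 0.70). All 4 were higher on array 2 than on array 1, as were 10462 of all 21427 probes. Their gaps were 0.13, 0.77, 0.63 and 0.66, where the median gap over all probes was 0.24 in either direction. Array 2 had the wider spread over all probes, an SD of 0.452 against 0.378, and whether that bears on these gaps was not tested.

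Among the STATs, Stat4 (Entrez 20849, probe 1228525_1) is the factor through which IL-12 drives interferon gamma and effector differentiation. It read 0.75 and 1.40, above 97.7% of probes on array 1 and 99.2% on array 2. It was the highest of the 8 genes on both. The mean was 1.08 ± 0.46 (SD, n = 2), a 2.11-fold difference, with a 95% confidence interval from limma of 0.52 to 1.63. limma's unadjusted p was 0.00487 and the adjusted p 0.184, so the gene did not pass.

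Stat3 (Entrez 20848, probe 1228533_1), the factor of IL-6, IL-10 and IL-21, read 0.11 on both arrays. Stat6 (Entrez 20852, probe 1228374_1), the factor of IL-4 and IL-13, read 0.09 and 0.08. Stat5a (Entrez 20850, probe 1228789_1), which with its near-copy Stat5b carries the IL-2, IL-7 and IL-15 signal, read -0.04 and -0.02. These 3 probes were the closest between arrays among the members, none more than 0.02 apart. They lay in the middle of all probes, with 65.2% of probe means below Stat3, 61.5% below Stat6 and 44.0% below Stat5a.

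limma's 95% confidence intervals ran from -0.26 to 0.48 for Stat3, from -0.28 to 0.45 for Stat6 and from -0.40 to 0.34 for Stat5a. These bounds hold the differences that limma's model leaves compatible with the 2 arrays. They are no limit of detection, as limma called 0 of all 21427 probes at an adjusted p under 0.05. The adjusted p of limma was 0.730, 0.794 and 0.935 in the same order. Stat5a and Stat5b are close relatives, and whether the Stat5a probe also binds Stat5b RNA was not tested.

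In order of the mean, the genes ran Stat4, Jak2, Jak1, Jak3, Tyk2, Stat3, Stat6 and Stat5a. No neighbours in this order were separated beyond their confidence intervals. The interval of Stat4 did not overlap those of Stat3, Stat6 and Stat5a, and it overlapped that of every JAK. Along the chromosome, Stat5b, Stat5a and Stat3 are consecutive protein-coding genes in the RefSeq table, and the measured members of that row, Stat5a and Stat3, both lay near 0.

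**Figure D2:**
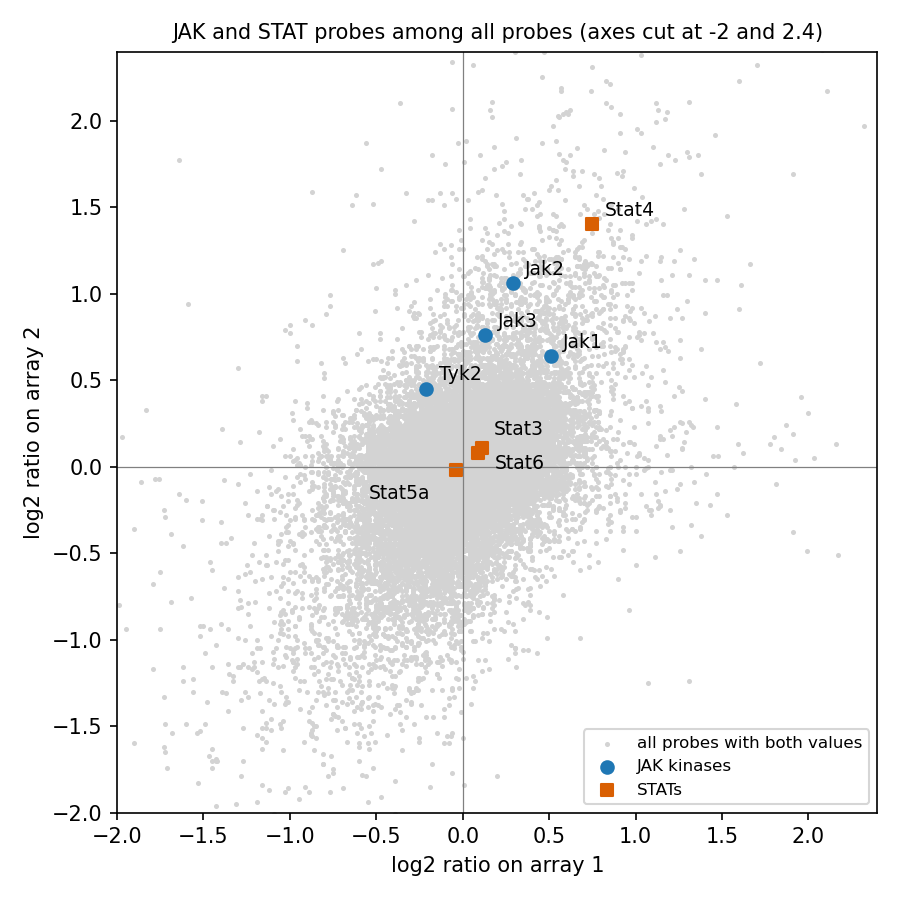
Log2 ratio on array 1 (horizontal axis) against array 2 (vertical axis) for all 21427 probes (grey), the JAK kinases (circles) and the STATs (squares); 58 probes lie outside the axes. Stat4 and Jak2 sit above most of the cloud, and Stat3, Stat5a and Stat6 in its middle.

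Markers listed for CD8+ T cells lay on the same side as most members. Apart from Cd8a and Cd8b1, the list holds genes that other T cells share. On both arrays 7 of 8 were positive and 0 negative, and the median was 0.37 (0.16 on array 1 and 0.63 on array 2). B cell markers did too, with 5 of 7 positive and 1 negative and a median of 0.33 (0.21 and 0.65). Over all genes, 29.6% had both arrays positive and 33.6% had both negative. By the mean of a gene's probes, Cd5 was the highest of the 8 T cell markers on both arrays, at 0.64 and 1.68. Cd3e read -0.09 and 0.45. The 2 probes of Cd8a differed, 1 with 0.03 and 0.74 and the other with 0.71 and 1.06. Cd8b1 read 0.21 and 0.16. Of the B cell markers Cd79b was the highest on both, at 0.67 and 1.62, while Blk read -0.05 and -0.04. Cd5, Cd3e, Cd79b and Blk were picked by their values. Natural killer cell markers had 1 of 5 positive and 2 negative (median 0.19), macrophage and dendritic cell markers 1 of 7 and 3 (median -0.13), CD4+ T cell markers 2 of 4 and 0 (median 0.12) and red cell markers 0 of 3 and 1 (median -0.01). A ratio gives no level, so the labelled cell type could not be checked by the presence of its markers. The part of any of these cells in the ratios of Stat4 and the JAKs was not tested, and more cells of a type and more RNA per cell cannot be told apart in such samples.

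The other genes of the pathway were taken as 13 lists by role, with the mean of a gene's probes as its value. limma, adjusted over all genes, called 0 genes of any list on either side. Over all genes, 5.86% were positive and 10.3% negative at an unadjusted p under 0.05. At least 2-fold on both arrays were 0.233% of genes on the positive and 0.721% on the negative side. The lists' counts are read beside these shares.

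Like Stat4, the interferon partners measured were positive on both arrays. Stat2, which carries the type I interferon signal, read 0.66 and 0.39, and its DNA-binding partner Irf9 read 0.75 and 0.89. The means were 0.53 ± 0.19 and 0.82 ± 0.10 (SD, n = 2), and limma's adjusted p over probes was 0.265 and 0.171.

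Receptor chains of the common gamma family and related receptors were mixed. The common gamma chain itself, Il2rg, to which Jak3 binds, had no value here. Among the 7 measured chains of this list, both arrays were positive for 1 and negative for 3. Their median was -0.07 (-0.01 on array 1 and -0.23 on array 2). Il7r, the IL-7 receptor alpha chain, read 1.58 and 4.19 and was, by the mean of a gene's probes, the only chain in this list at least 2-fold on both arrays. Its mean was 2.89 ± 1.85 (SD, n = 2), with a limma adjusted p of 0.204.

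Il2rb, the signalling chain shared by IL-2 and IL-15, was on the other side with -0.42 and -1.18. Il21r read 0.14 and -0.23. The 3 probes of Il2ra, the high-affinity IL-2 receptor chain, disagreed: they read -1.14 and -1.59, -0.21 and -0.61, and 1.35 and -0.21. The first of these was at least 2-fold on the negative side of both arrays, which the mean over the 3 probes does not show. Il2rb and Il7r, whose receptors use the same pair of kinases, lay on opposite sides. That difference was not tested.

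The IL-12 receptor chains did not lie with Stat4. Il12rb1, the chain on which Tyk2 sits, read -0.56 and -0.47, a mean of -0.52 ± 0.06 (SD, n = 2) with limma's adjusted p at 0.250. Il12rb2, the chain on which Jak2 sits and to which Stat4 docks, read 0.09 and -0.33. So the factor was positive on both arrays, 1 chain was negative on both, and the other turned sign.

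For Stat3, the chain gp130 is encoded by Il6st, whose probes disagreed, 1 with 0.92 and 1.68 and the other with -0.08 and -0.29. Il6ra, the IL-6 binding chain, read 0.25 and 0.43. The 10 measured gp130 and IL-12 family chains had 3 with both arrays positive and 2 with both negative. Their median was 0.09, with 0.06 on array 1 and 0 on array 2.

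The 5 measured interferon and IL-10 family chains had 2 positive and 0 negative on both arrays. Their median of 0.19 was -0.04 on array 1 and 0.34 on array 2. The 6 beta common and single-chain receptors had 4 and 0 (median 0.21). Among 19 ligands 5 were positive and 2 negative on both, and the median was 0.06 (0.12 on array 1 and 0.04 on array 2). Ifng, the gene of interferon gamma and a STAT4 target, was the only ligand at least 2-fold on both arrays, at -1.41 and -2.12.

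**Figure D3:**
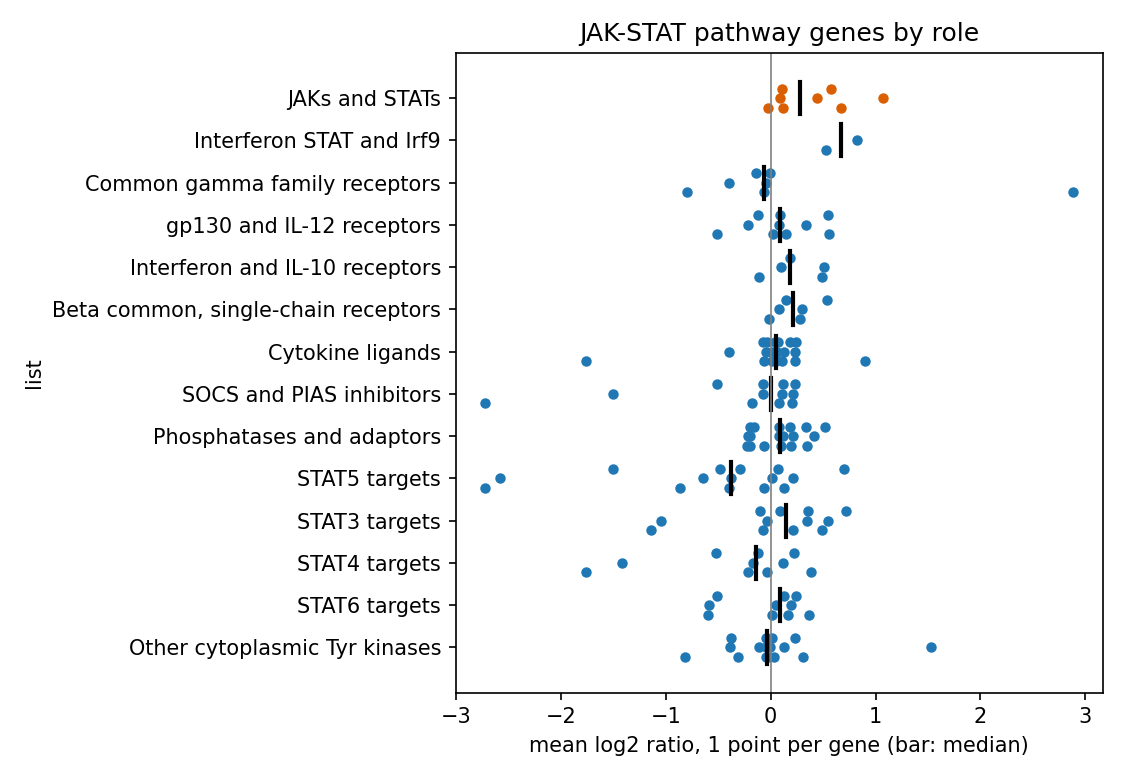
Mean log2 ratio of the 2 arrays for each measured gene (points, horizontal axis) in the JAK and STAT group and 13 lists of pathway genes (rows), with the list median as a bar. The JAKs and STATs spread from -0.03 to 1.08, while SOCS genes and STAT5 targets reach below -2.

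Among the feedback inhibitors, Socs2 had the lowest mean of all the list genes. The 12 SOCS and PIAS genes had 2 positive and 5 negative on both arrays, and their median was 0.005 (0.13 on array 1, -0.04 on array 2 and -0.01 after median centring). Socs2, which dampens growth hormone and STAT5 signals, read -2.33 and -3.12, and Cish, a STAT5-induced inhibitor of IL-2 receptor signalling, -1.16 and -1.84. They were the 2 genes of the list that were at least 2-fold on both arrays. Their means were -2.73 ± 0.56 and -1.50 ± 0.48 (SD, n = 2), and limma's adjusted p was 0.162 and 0.165. Socs1, which blocks the JAK active site, read -0.72 and -0.30, and Socs3, the inhibitor at gp130, 0.45 and -0.02.

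Socs2 and Cish, both STAT5-induced, lay on the side opposite to Stat4, Jak1 and Jak2, while Stat5a itself had a mean of -0.03. Phosphatases and adaptors of the pathway were found on both sides, with 6 of 18 positive and 5 negative. Their median of 0.09 was 0.20 on array 1 and -0.08 on array 2.

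**Figure D4:**
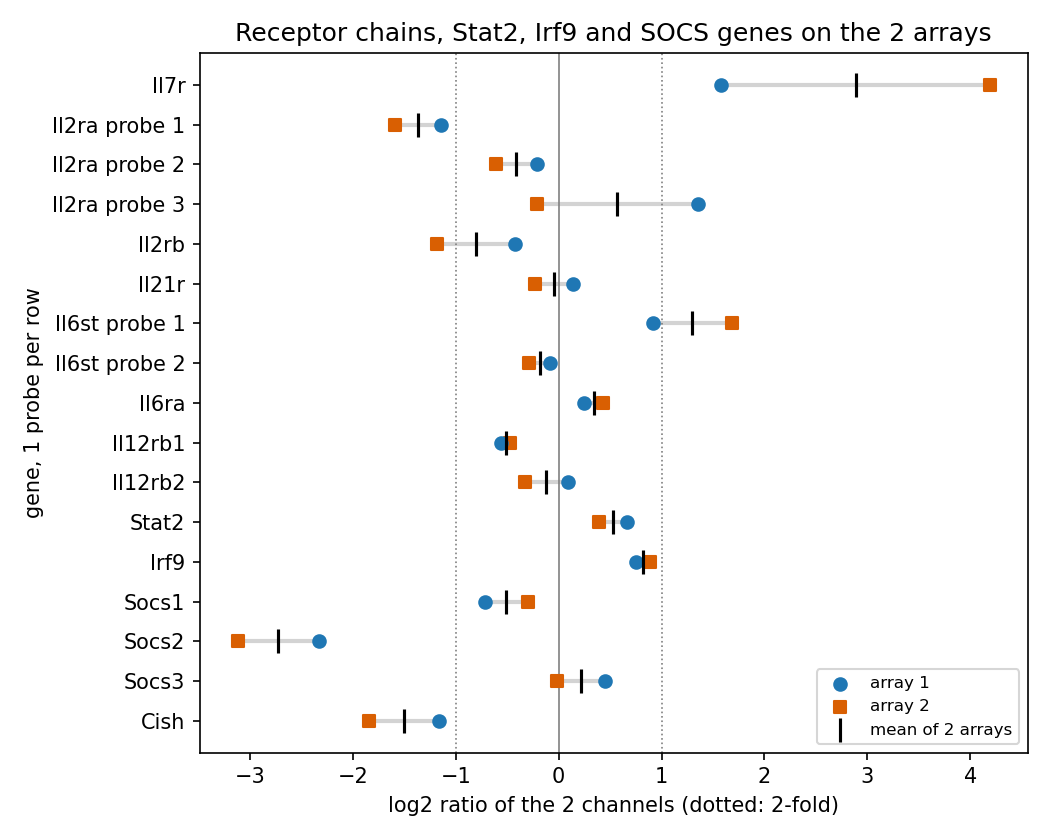
Log2 ratio on array 1 (circles) and array 2 (squares), with the mean as a bar, for receptor chains, Stat2, Irf9 and SOCS genes, 1 probe per row; dotted lines mark 2-fold. Il7r lies farthest right (1.58 and 4.19), Socs2 farthest left (-2.33 and -3.12), and the probes of Il2ra and of Il6st disagree.

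Textbook target genes of each STAT were counted in the same way. The lists do not separate targets that a factor raises from those it lowers. The 15 measured STAT5 targets had 1 positive and 6 negative on both arrays. Their median was -0.38 (-0.11 and -0.72 on arrays 1 and 2). At least 2-fold on the negative side were 3 of them: Socs2, Cish and Gzmb, a granzyme of cytotoxic granules, at -2.41 and -2.75. Bcl2, the survival gene, read -0.26 and -1.03, and Ccnd3, a G1 cyclin, -1.01 and -0.72. Both were chosen after their values were seen. At an unadjusted p under 0.05 in limma were 5 of the 15, all negative.

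The 10 STAT4 targets had 2 positive and 5 negative on both arrays, and their median was -0.14 (-0.22 and -0.28 on arrays 1 and 2). Ifng and Gadd45g, a stress gene that supports interferon gamma production, were at least 2-fold negative, Gadd45g with -1.48 and -1.36. These 2 targets were on the side opposite to Stat4. Tbx21, the gene of T-bet, read 0.04 and 0.72 and was chosen after its value was seen.

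The 12 STAT3 targets had 3 positive and 3 negative on both arrays, and their median was 0.15 (-0.04 on array 1 and 0.37 on array 2). The only target at least 2-fold on both was Birc5, which acts in cell division and survival, at -1.16 and -1.13. The 10 STAT6 targets had 4 positive and 3 negative, with 0 at 2-fold, and their median of 0.09 was -0.01 on array 1 and 0.08 on array 2. Many targets answer to several factors, and genes such as Socs3, Il21 and Ifng stand in more than 1 list, so the lists are not independent.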

How the data were processed

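Arrays with 2 channels and 2 stages of murine CD8+ T cells were compared. The deposited table gives 1 value per probe and array, used as log2 ratios; the authors' scanner, background correction and normalization are not given in the sources used here. Of 21919 probes, 340 lacked a value on array 1 and 300 on array 2, and 15998 had 1 gene symbol in the platform annotation. The ratio was tested against 0 with limma 3.58.1 in R 4.3.3 (intercept over both arrays, two-sided, Benjamini-Hochberg over 21427 probes, threshold 0.05). With 1 residual degree of freedom per probe and 3.43 from the variance prior, the test had a median 95% half-width of 0.396. The number of arrays limits the precision. A gene's value was the mean of its probes, and gene tests were adjusted over 14150 genes. Members and lists were chosen with earlier results of these data known. Named genes were all members, a fixed set of receptor, STAT and SOCS genes, and list genes past 2-fold on both arrays; other named genes are marked as later choices, or are markers and list examples. Il2rg and Il4ra of that set had no value here. Alternatives tried were quantile normalization, median centring, natural logs, each array alone, probes with a single value kept, fits per gene or with its closest probe, and a robust or no variance prior. Promoter windows came from RefSeq (GRCm38.p6), where all 1668 overlapping windows on opposite strands were reverse complements.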

Additional observations from a re-analysis of the deposited data

How the results depend on the processing

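The means of the 8 members kept their side under median centring and quantile normalization. Keeping probes with 1 value, 1 value per gene, a robust prior and no moderation cannot move these means and bear only on the p-values. Stat4 ran from 1.05 to 1.08 over the normalizations, Jak1 from 0.56 to 0.58, Jak2 from 0.61 to 0.68 and Jak3 from 0.41 to 0.45, and limma's lowest adjusted p for Stat4 was 0.126 among the settings with moderation. Without moderation 1 member passed, Stat3, and 241 probes in all. Stat3 read the same on both arrays, so its own spread was 0 (mean 0.11, adjusted p of 6.24e-15), which is no measure of its error. On a single array the value of Tyk2 was -0.21 or 0.45, of Socs3 -0.02 or 0.45, of Il12rb2 -0.33 or 0.09, of Il21r -0.23 or 0.14 and of the third Il2ra probe -0.21 or 1.35. Of the other named probes, 136 of 140 comparisons stayed on their side and within their spread or call. This count is little evidence of stability. A single array cannot lie farther from the mean of both arrays than their SD. Leaving out an array could therefore show only a change of side. For these probes too, keeping probes with 1 value, a robust prior and no moderation cannot move the mean.

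On single arrays the negative members numbered 1 or 2. Members at least 1.5-fold numbered 1 on array 1 and 4 on array 2, all positive, against 4.42% and 6.24% of probes, and at least 2-fold 0 and 2, against 0.868% and 2.25%. Read as natural logs 2 and 1 were past these sizes on both arrays, against 3.91% and 1.11% of probes on the positive side. The lower and higher single-array medians of the lists were -0.23 and -0.01 for the common gamma family, 0 and 0.06 for gp130 and IL-12 chains, -0.04 and 0.34 for interferon and IL-10 chains, 0.04 and 0.12 for ligands, -0.04 and 0.13 for SOCS and PIAS genes, -0.075 and 0.20 for phosphatases and adaptors, -0.0425 and 0.365 for STAT3 targets, -0.28 and -0.22 for STAT4 targets, -0.72 and -0.11 for STAT5 targets, 0.64 and 0.71 for Stat2 and Irf9, 0.20 and 0.23 for beta common and single-chain receptors, -0.01 and 0.075 for STAT6 targets and -0.0433 and 0.02 for other cytoplasmic tyrosine kinases. Median centring takes 0.01 off array 1 and 0.02 off array 2, which moved the SOCS and PIAS median from 0.005 to -0.01. The cause of the differences between single arrays was not tested. Each ratio pairs the 2 stages within an array, so the test against 0 is the paired comparison. A test on 1 array has no residual degree of freedom and was not run. Signal over background is unknown, so what depth limits cannot be given.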

Other observations

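Other cytoplasmic tyrosine kinases, the family next to the JAKs in T cell signalling, did not lie on one side. The 17 measured had 4 positive and 5 negative on both arrays (median -0.04), against 3 positive and 0 negative among the 4 JAKs. Genes of the whole series were split as well, with shares of 29.6% on the positive and 33.6% on the negative side. The split alone therefore does not set the 17 apart from other genes. Their difference from the JAKs was not tested. Lower values were seen for Zap70, the kinase of the T cell receptor, at -0.31 on both arrays, and for Tnk2 at -0.57 and -1.07. Matk, which like Csk can phosphorylate the inhibitory tail of Src family kinases, read 0.75 and 2.31, and Tec 0.44 and 0.17. limma called 0 of the 17, with 1 positive and 1 negative gene at an unadjusted p under 0.05. These kinases were chosen as examples after their values were seen.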
